A study of Homo sapiens with 6 samples.

Results

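The genes described here move iron into the cell, hold it there or release it, and were chosen by symbol, by a rule that uses no measured value, although the list was drawn up with earlier results of these data known. They are transferrin (TF), the transferrin receptors TFRC and TFR2, the divalent metal transporter SLC11A2, the ferritin chains FTL and FTH1, hepcidin (HAMP), ferroportin (SLC40A1), ceruloplasmin (CP) and hemopexin (HPX). All 10 were present among the 16721 rows of the deposited count table.

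RNA-seq counts were available for Hep3B, a line of human hepatocellular carcinoma cells, in 2 groups of 3 libraries. The sgControl libraries, with the genotype label WT, came from cells with a control guide, and the sgRFX6 libraries came from cells in which RFX6, a transcription factor of the RFX family, was knocked out. Guides and Cas9 were delivered with lentiCRISPRv2, cells were selected with puromycin, and clones grown from single cells were expanded, so that a difference between the groups cannot be told apart from a difference between clones. The study says in general that experiments were repeated independently, but not whether the RNA-seq libraries of a group came from separate cultures, and p-values therefore measure only the spread between these libraries, which may be technical. In the table the control columns carry the word cas and no guide name, and all sgRFX6 columns carry sg3, a guide against RFX6 in the study's methods. A difference between the groups therefore also cannot be told apart from an effect of that guide other than the knockout.

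Iron circulates bound to transferrin, which is secreted mainly by the liver and enters cells with the transferrin receptor. Inside the cell, SLC11A2 carries the freed iron out of the endosome, ferritin stores what is not used, and ferroportin releases iron to the blood. Hepcidin, a hormone of hepatocytes, closes ferroportin. Cells tune several of these genes after transcription. When iron is scarce, the iron regulatory proteins ACO1 and IREB2 bind a hairpin called the iron-responsive element, which blocks translation when it lies in the 5′ untranslated region, as in the ferritin mRNAs, and shields the TFRC mRNA from decay when it lies in the 3′ untranslated region. An mRNA count therefore covers only part of the regulation of these genes.

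The hairpin letters are shown because the ferritin chains, ferroportin and TFRC are known for control through such elements. In GENCODE 29 transcripts on GRCh38, the transcribed strand was searched for C, 5 free bases, CAGTGN and 5 free bases. The 5 bases on each side of CAGTGN had to pair with each other, G-U pairs allowed. Each match is printed as a window of 27 bases, with 5 flanking bases on each side that the search did not use. Of the 10 genes, 5 held such a match. The background was 290 of 19677 protein-coding genes (1.47%) for any position, and 168 (0.854%) for matches wholly outside the coding part. Capitals mark the loop, and the windows read 5′ to 3′.
FTL, 5′ untranslated region: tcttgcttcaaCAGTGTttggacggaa
FTH1, 5′ untranslated region: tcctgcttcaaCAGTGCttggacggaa
SLC40A1, 5′ untranslated region: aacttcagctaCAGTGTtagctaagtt
TFRC window 1, 3′ untranslated region: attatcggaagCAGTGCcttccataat
TFRC window 2, 3′ untranslated region: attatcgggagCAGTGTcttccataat
TFRC window 3, 3′ untranslated region: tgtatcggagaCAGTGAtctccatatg
TFRC window 4, 3′ untranslated region: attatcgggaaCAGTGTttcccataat
TF, 3′ untranslated region: gaatgcattttCAGTGAaagattataa

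The window of FTL lies at chr19:48965336-48965362 on the plus strand and that of FTH1 at chr11:61967575-61967601 on the minus strand, and the pair was identical at 25 of 27 bases. The SLC40A1 window lies at chr2:189580662-189580688 on the minus strand. The TFRC windows lie on the minus strand at chr3:196050980-196051006, chr3:196050576-196050602, chr3:196050511-196050537 and chr3:196050464-196050490, and windows 1 and 2 were identical at 25 of 27 bases. TF, which is not a classical iron-responsive mRNA, matched at chr3:133792674-133792700 on the plus strand, in the annotated tail of TF that lies within the span of SRPRB, a gene on the same strand (chr3:133784033-133825772). This window is therefore uncertain as a part of the TF mRNA. A match describes letters and is not evidence of a bound site, and the absence of these letters from the other 5 genes says nothing about their control.

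The libraries held 16730386 to 25070793 counts, so that 3 counts correspond to 0.121 to 0.188 CPM (counts scaled to library size with TMM factors). RFX6 itself was counted 117, 144 and 170 times in sgControl and 69, 59 and 77 times in sgRFX6. The groups did not overlap for RFX6, but the decrease did not pass edgeR's quasi-likelihood test (log2 fold change -0.82, SE 0.26, adjusted p = 0.142), and a guide need not lower the mRNA of the gene it cuts. Of 17 alternative fits, 1 called RFX6 lower, limma-voom with sample quality weights (-0.96, adjusted p = 0.00274). All 10 hepatocyte markers were detected at low levels, with none above 89.9 CPM (APOH) in any library. Their summed level was 214 to 262 CPM in sgControl and 142 to 184 CPM in sgRFX6, but single markers went both ways. Alpha-fetoprotein (AFP), which Hep3B cells are known to secrete, was counted 48, 39 and 51 times in sgControl and 201, 273 and 353 times in sgRFX6 and rose (log2 fold change 2.82, edgeR adjusted p = 0.00254), as did AHSG (1.68, adjusted p = 0.0119). FGB (-2.45, adjusted p = 0.00417) and RBP4 (-1.24, adjusted p = 0.0247) fell, and the other 6 were not called by edgeR, among them albumin (ALB), counted 293 to 793 times. Of the uncalled markers, APOB and APOH were lower in every sgRFX6 library. APOB had means of 66.6 CPM in sgControl and 27.1 CPM in sgRFX6 (log2 fold change -1.29, edgeR adjusted p = 0.116). It was called in 6 of 17 alternative fits, correction for GC content among them (adjusted p = 0.0136). Summed fibroblast markers were 8.87 to 10.5 CPM in sgControl and 1.41 to 2.58 CPM in sgRFX6. Of these, edgeR called COL1A1, COL1A2 and PDGFRA lower, while DCN overlapped between the groups (log2 fold change -0.44, edgeR adjusted p = 0.758). Leukocyte markers, mostly CD68, summed to 73.6 to 159 CPM and 62.7 to 101 CPM, endothelial markers to 11.6 to 13.5 CPM and 13.3 to 19.6 CPM, and erythroid markers to 0.162 to 0.561 CPM and 0.318 to 0.565 CPM, in sgControl and sgRFX6, with CD3E, KDR and HBB at no more than 3 counts in every library. The part of the markers in the results below was not tested. The libraries are labelled as Hep3B cells, so a marker of another cell type need not come from such cells. In bulk RNA, fewer cells of a type and less RNA per cell cannot be told apart.

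Levels of the iron genes spanned the whole range of the table. FTL was the most abundant row in every library, with 1.34% to 2.14% of all counts, and FTH1 ranked between 3rd and 9th. Divided by the length of all annotated exons, the mean level in sgControl was 17437 ± 2240 CPM per kb for FTL, 2262 ± 164 for FTH1, 57.9 ± 19.4 for TFRC, 12.6 ± 1.69 for SLC40A1, 6.75 ± 0.199 for SLC11A2, 1.26 ± 0.626 for CP and 0.457 ± 0.619 for HAMP (SD, n = 3). The storage genes thus stood far above uptake and export. CP and HAMP overlapped in sgControl and could not be ordered, and divided by the longest coding transcript instead, SLC40A1 and SLC11A2 did not differ beyond their spread (15.8 ± 2.13 and 15.7 ± 0.464 CPM per kb). HPX followed at 0.0368 CPM per kb of exon, and TFR2 had no counts in sgControl. TF was left out of the order because its annotated length, 20602 bases in 1 transcript, runs into the neighbouring gene SRPRB. In sgRFX6 the order was the same by exon length, with FTL at 20109 ± 5764, FTH1 at 3648 ± 882 and TFRC at 69.8 ± 18 CPM per kb.

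**Figure D1:**
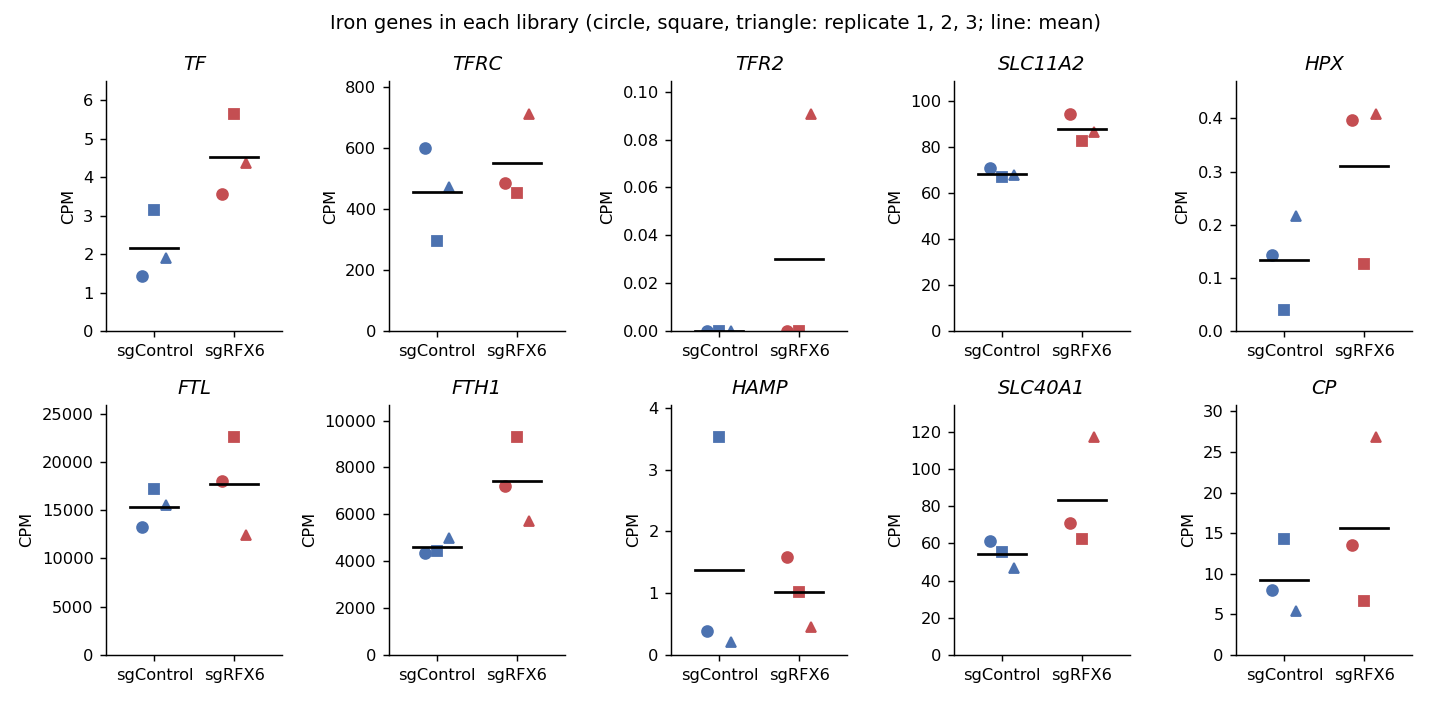
Level of each iron gene in every library, as TMM-scaled CPM on a linear axis of its own for each gene, with sgControl libraries in blue, sgRFX6 libraries in red and the mean of each group as a line. FTH1 lies at 4365 CPM or higher and FTL at 12429 CPM or higher in all 6 libraries, and the groups are apart for TF, SLC11A2, FTH1 and SLC40A1.

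Of the 10 genes, 8 had enough counts to be tested and none passed an adjusted p of 0.05, against 3.74% of the 12839 genes tested (480 genes, of which 247 were higher and 233 lower in sgRFX6). At an unadjusted p under 0.05, 4 of the 8 passed, namely TF, SLC11A2, FTH1 and SLC40A1, where 15.6% of all tested genes did. In the same 4 genes every sgRFX6 library lay above every sgControl library, as it did for 12.0% of all tested genes. After correction for GC content the groups remained apart for FTH1 and SLC40A1 and overlapped for TF and SLC11A2. The share of all tested genes whose groups were apart after this correction was not determined. At an adjusted p under 0.05, DESeq2 called 1 of the iron genes and 895 genes in all. The GC-corrected fit called 2 and 1458, and limma-voom with sample quality weights called 6 and 3998. The fold change fitted by edgeR without correction was positive for 7 of the 8 and negative for HAMP. Its median on the log2 scale was 0.49, beside 0.02 for all tested genes. With 3 against 3 libraries a two-sided exact permutation test cannot give a p below 0.1, and each of the 4 genes whose groups did not overlap was at that value.

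**Figure D2:**
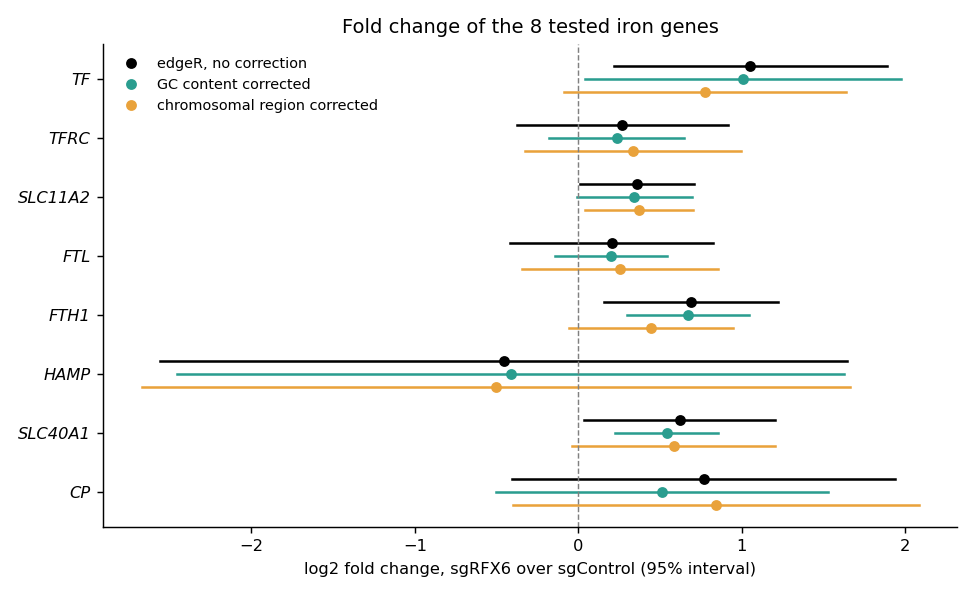
Log2 fold change of sgRFX6 over sgControl for the 8 tested iron genes, with 95% intervals, from edgeR without correction (black), after correction for GC content (green) and after correction for the chromosomal region (orange). The estimate for HAMP has the widest interval, -2.56 to 1.65 without correction, and all 3 estimates are positive for each of the other genes.

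Among the uptake genes, TF and SLC11A2 had higher values in every sgRFX6 library, while TFRC overlapped between the groups. TF (chr3:133745956-133796640, plus strand), the iron carrier of plasma, was counted 30, 78 and 44 times in sgControl and 72, 90 and 96 times in sgRFX6. This gave 1.44, 3.16 and 1.90 CPM against 3.57, 5.65 and 4.36 CPM. The levels are low for a gene that hepatocytes are known to express strongly. The fitted log2 fold change was 1.05 (SE 0.37, 95% interval 0.22 to 1.89, edgeR adjusted p = 0.189). The 50 tested genes nearest to TF on the chromosome had a median log2 fold change of 0.31, and after subtraction of this regional median TF was at 0.78 (adjusted p = 0.478). After GC correction the groups overlapped, at 1.30, 3.54 and 1.94 CPM against 3.87, 6.62 and 3.31 CPM. SRPRB, on the same strand and overlapping the annotated end of TF, was counted 13.7 to 40.8 times per TF count and was itself higher in every sgRFX6 library (log2 fold change 0.47, adjusted p = 0.272), so that TF counts may hold SRPRB reads and are uncertain.

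TFRC (chr3:196027183-196082189, minus strand), which takes up iron-loaded transferrin, was at 601, 296 and 473 CPM in sgControl and 486, 452 and 713 CPM in sgRFX6. The ranges overlapped, and the log2 fold change of 0.27 lay within its error (SE 0.28, 95% interval -0.38 to 0.91, edgeR adjusted p = 0.748). It was 0.51 without sgControl library 1, 0.03 without sgControl library 2 and 0.05 without sgRFX6 library 3. TFR2 (chr7:100620416-100642779, minus strand), the receptor that takes part in hepcidin control in hepatocytes, had 2 counts in sgRFX6 library 3 and 0 counts in the other 5 libraries, which allows up to 3 counts in each of them and gives no comparison. SLC11A2 (chr12:50979401-51028566, minus strand), the transporter that empties endosomal iron into the cytosol, was at 70.7, 66.8 and 67.9 CPM in sgControl and 94.5, 82.5 and 86.4 CPM in sgRFX6. Its groups were each narrow and did not overlap, but after GC correction they did, at 65, 73.4 and 69.1 CPM against 100, 94.5 and 68.6 CPM. A log2 fold change of 0.36 (SE 0.15, 95% interval 0.01 to 0.71) did not pass edgeR's test after adjustment (adjusted p = 0.305).

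Of the ferritin chains, FTH1 was higher in every sgRFX6 library and FTL overlapped between the groups. Ferritin is a shell of mixed subunits, in which the heavy chain FTH1 oxidises iron for storage and the light chain FTL helps to build the mineral core. FTH1 (chr11:61959718-61967660, minus strand) was at 4365, 4436 and 4974 CPM in sgControl and 7219, 9283 and 5715 CPM in sgRFX6. All sgRFX6 libraries were above all sgControl libraries. The log2 fold change was 0.69 (SE 0.23, 95% interval 0.16 to 1.22, edgeR adjusted p = 0.175). After GC correction it was 0.67 and passed the test (adjusted p = 0.0347), in a fit that called 1458 genes rather than 480. It also passed in DESeq2 (adjusted p = 0.0472), which called 895 genes. After subtraction of its regional median of 0.27 it was 0.45 (adjusted p = 0.483). BEST1, which overlaps FTH1 on the opposite strand, reached at most 0.125% of the FTH1 counts, with a log2 fold change of 1.13 (adjusted p = 0.0953, called in 4 of 17 alternative fits).

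FTL (chr19:48965301-48966878, plus strand) was at 13259, 17180 and 15491 CPM in sgControl and 18004, 22533 and 12429 CPM in sgRFX6. The sgRFX6 libraries held both the highest and the lowest value. The log2 fold change of 0.21 was within its error (SE 0.27, 95% interval -0.42 to 0.83, edgeR adjusted p = 0.817), and without sgRFX6 library 2 it was -0.01, so that no direction can be given. The annotation lists 25 pseudogenes of FTH1 and 16 of FTL, which are near copies of their mRNAs. None was a row of the table, and how the counting treated reads that match several copies is not given in the sources used here.

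The ratio of both chains within a library does not depend on library scaling, and it was examined after the values had been seen. FTL was counted 3.04, 3.87 and 3.11 times per FTH1 count in sgControl and 2.49, 2.43 and 2.17 times in sgRFX6. Every sgRFX6 ratio was below every sgControl ratio. The means were 3.34 ± 0.462 and 2.37 ± 0.168 (SD, n = 3), a log2 difference of -0.49, and the two-sided exact permutation test gave its smallest possible p, 0.1. From GC-corrected CPM the ratios were 3.15, 3.64 and 3.09 in sgControl and 2.42, 2.26 and 2.49 in sgRFX6. Summed, FTL and FTH1 reached 17624, 21616 and 20465 CPM in sgControl and 25223, 31816 and 18144 CPM in sgRFX6, which overlapped (log2 difference 0.30, exact permutation p = 0.3).

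**Figure D3:**
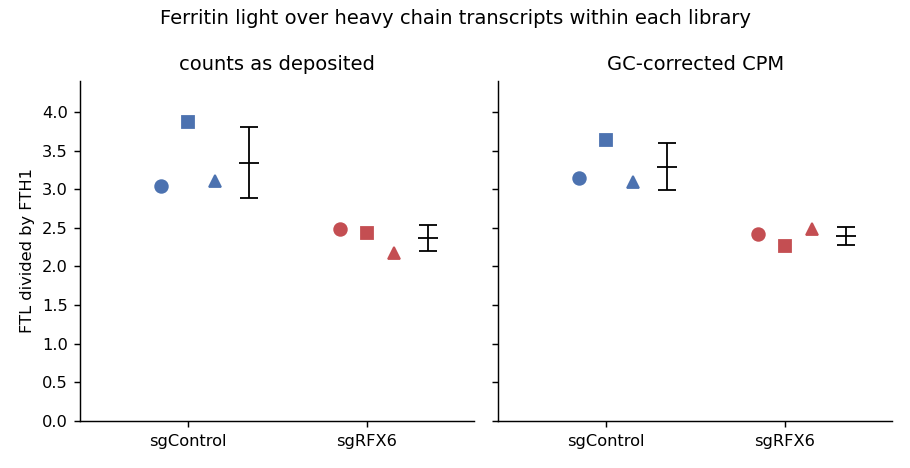
FTL counts per FTH1 count in each library from the deposited counts and from GC-corrected CPM, with the mean and SD of each group of 3 libraries. The sgControl ratios are 3.04 or higher and the sgRFX6 ratios 2.49 or lower on both scales.

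Of the export genes, SLC40A1 was higher in every sgRFX6 library and CP was not. SLC40A1 (chr2:189560579-189583758, minus strand), the known cellular exporter of iron, was at 61.4, 55.1 and 46.7 CPM in sgControl and 71.1, 62.3 and 117 CPM in sgRFX6. The lowest sgRFX6 library was close to the highest sgControl library, and library 3 stood above both others. The log2 fold change was 0.62 (SE 0.26, 95% interval 0.04 to 1.20, edgeR adjusted p = 0.284) and 0.30 without sgRFX6 library 3. After GC correction it was 0.54 and passed the test (adjusted p = 0.0408), in the fit that called 1458 genes rather than 480.

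CP (chr3:149162410-149222055, minus strand), the copper ferroxidase that loads exported iron onto transferrin, was at 8.04, 14.3 and 5.35 CPM in sgControl and 13.6, 6.66 and 26.8 CPM in sgRFX6. The groups overlapped widely. On the log2 scale the fold change was 0.77 (SE 0.52, 95% interval -0.40 to 1.94, edgeR adjusted p = 0.553) and 0.13 without sgRFX6 library 3. HPS3, which overlaps CP on the opposite strand, had a log2 fold change of 0.04.

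HAMP (chr19:35280716-35285143, plus strand), the hormone that closes ferroportin, was counted 8, 87 and 5 times in sgControl and 32, 16 and 10 times in sgRFX6. Library 2 alone held 87 of the 100 sgControl counts, and the other sgControl libraries lay below all sgRFX6 libraries. In CPM the values were 0.385, 3.52 and 0.216 against 1.59, 1.01 and 0.454. The log2 fold change was -0.46 (SE 0.93, 95% interval -2.56 to 1.65, edgeR adjusted p = 0.894) and turned to 1.74 (adjusted p = 0.267) without sgControl library 2, so that no direction can be given. HPX (chr11:6431049-6442617, minus strand), the plasma scavenger of free haem, was counted 3, 1 and 5 times in sgControl and 8, 2 and 9 times in sgRFX6. These counts were too low for the test, and the groups overlapped.

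In sgRFX6 library 3 the deviation of several iron genes followed the GC content of their transcripts, which also ordered the other genes. Across the tested genes, which are not independent replicates, the Spearman correlation of a library's deviation from its group mean with GC content was -0.57, 0.41 and 0.05 in sgControl and 0.65, 0.73 and -0.85 in sgRFX6. In sgRFX6 library 3 the AT-rich genes CP (39.1% GC), SLC40A1 (42.4%) and TFRC (42.6%) deviated by 0.99, 0.55 and 0.40 on the log2 scale, and FTH1 (50.8%), FTL (56.3%) and HAMP (58.5%) by -0.35, -0.46 and -0.87. TF (42.2%) and SLC11A2 (43.1%) were near 0 in that library, at -0.03 and -0.02. The trend was opposite in sgControl library 2, where TFRC at -0.57 and FTL at 0.17 went with it. There CP at 0.74 and TF at 0.60 went against it, since genes of similar GC content had medians of -0.21 and -0.10. For TFRC, correction for GC content brought the sgRFX6 libraries from 486, 452 and 713 CPM to 522, 523 and 553 CPM, and the log2 fold change became 0.24 (adjusted p = 0.45). For SLC11A2 the correction widened the sgRFX6 libraries from an SD of 0.10 to 0.30 on the log2 scale. The median log2 fold change of the 8 genes was 0.43 after the correction. The source of the GC trend was not tested.

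**Figure D4:**
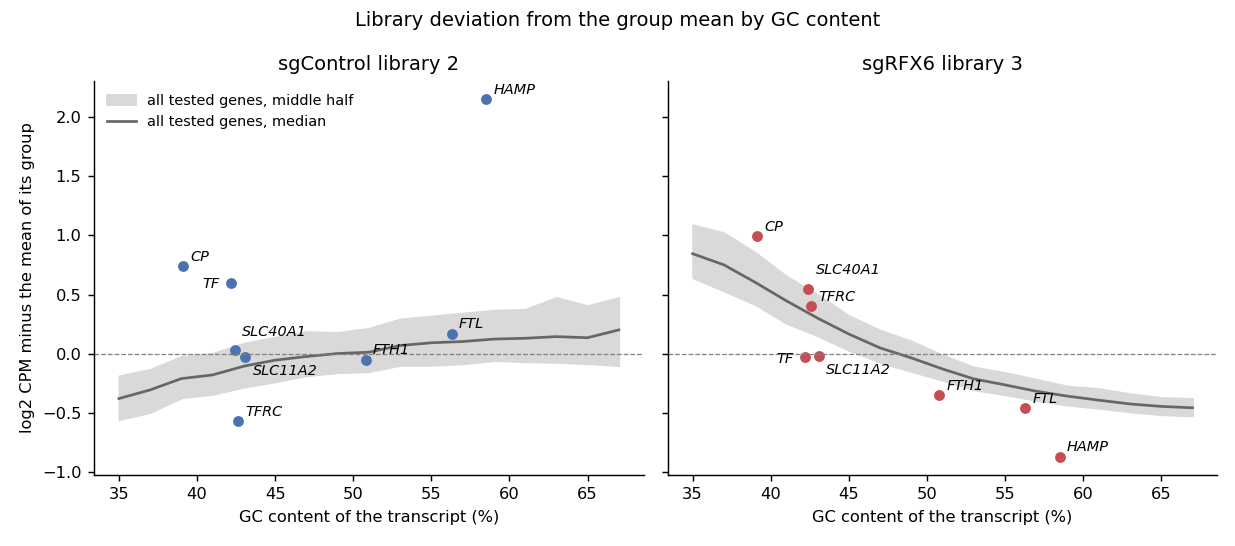
Deviation of log2 CPM from the mean of its group against the GC content of the transcript, for the tested iron genes (points) in sgControl library 2 and sgRFX6 library 3, with the median of all tested genes (line) and the range between their quartiles (grey). CP at 0.99 and FTL at -0.46 in sgRFX6 library 3 deviate in the direction of the falling line and lie beyond the grey range. HAMP at 2.15 in sgControl library 2 lies far above the rising line of that library.

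A wider list of 63 genes of iron and haem handling, none of them among the 10, was also drawn up with earlier results of these data known. Shares of this list therefore describe it and do not test whether iron genes respond more than others. Of the 63 genes, 61 were in the table and 54 were tested, with 29 positive and 25 negative fold changes and a median log2 fold change of 0.04. The edgeR test called 6 of the 54 (11.1%, beside 3.74% of all tested genes), 5 higher and 1 lower in sgRFX6. An unadjusted edgeR p under 0.05 was found for 14 of the 54, where 15.6% of all tested genes had one. Every sgRFX6 library lay above every sgControl library for 11 and below for 6, as for 12.0% and 11.2% of all tested genes. Haem synthesis, breakdown and transport gave 2 of 17 tested, iron reduction and endosomal export 2 of 6, and hepcidin regulation 1 of 16. Ferroxidases, haem and haemoglobin binding gave 1 of 3, with the ferroxidases HEPH and HEPHL1 not tested. None of the 6 came from iron sensing and ferritin turnover (0 of 6) or mitochondrial iron (0 of 6).

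Both haem genes rose. HMOX1 (chr22:35380361-35394214), the oxygenase that opens haem and frees its iron, was at 215, 137 and 182 CPM in sgControl and 455, 438 and 402 CPM in sgRFX6. The groups lay far apart (log2 fold change 1.28, SE 0.20, adjusted p = 0.00948), and the call held in all 17 alternative fits. ABCG2 (chr4:88090264-88231322), an exporter of porphyrins and many drugs, was at 49.9, 35.5 and 45.4 CPM against 88.7, 79.9 and 136 CPM. Its groups were also separate (log2 fold change 1.22, SE 0.24, adjusted p = 0.0283), but it was called in 2 of the 6 fits that left out a library, with adjusted p-values of 0.0544, 0.0952 and 0.112 without sgControl library 1, 2 or 3 and 0.0711 without sgRFX6 library 1. CD163 (chr12:7470813-7503893), the macrophage receptor for haemoglobin bound to haptoglobin, rose from 0.963, 0.445 and 0.777 CPM to 3.28, 3.58 and 4.13 CPM. The groups were separate at a low level (log2 fold change 2.33, SE 0.37, adjusted p = 0.0107), and without sgControl library 3 the adjusted p was 0.0594.

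STEAP1 and STEAP2, of a family of metal reductases, rose. STEAP1 (chr7:90154375-90164829), which lacks the domain that binds the electron donor, was at 18.3, 12.9 and 15.8 CPM in sgControl and 33.1, 42.5 and 52.5 CPM in sgRFX6 (log2 fold change 1.45, SE 0.25, adjusted p = 0.0141). STEAP2, its neighbour at chr7:90167590-90238137, was at 14.4, 10.4 and 11.5 CPM against 36, 33.9 and 85.3 CPM (log2 fold change 2.10, SE 0.38, adjusted p = 0.0182). The groups were separate for both genes, but their region had a median log2 fold change of 0.41, and after subtraction of it the adjusted p-values were 0.0697 and 0.0611. Without sgControl library 3 they were 0.0806 for STEAP1 and 0.0929 for STEAP2, and without sgControl library 2 that of STEAP2 was 0.0781. The other 4 tested genes of reduction and endosomal export had negative fold changes, of which edgeR called none, while SLC39A8 (-0.73, adjusted p = 0.278) was called after GC correction (adjusted p = 0.0286) and by limma-voom.

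BMP6 (chr6:7726797-7881422), the ligand that raises hepcidin when liver iron is high, was the 1 gene of the wider list that edgeR called lower. SLC25A37, a mitochondrial iron importer, was at -0.62 (adjusted p = 0.0902) and was called lower in 4 of 17 alternative fits, GC correction among them (adjusted p = 0.00847). BMP6 was at 78.5, 82.2 and 77.6 CPM in sgControl and 39.9, 31.7 and 39.7 CPM in sgRFX6. The libraries of each group were close together and the groups far apart (log2 fold change -1.10, SE 0.17, adjusted p = 0.0107). The adjusted p was 0.0684 without sgControl library 3 and 0.0564 without sgRFX6 library 1, and the call was kept in the other 4 fits that left out a library. For HAMP, a known target of BMP6 signalling, the counts above gave no direction.

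The iron regulatory proteins themselves were not called by edgeR. Limma-voom with sample quality weights called both, ACO1 at 0.30 (adjusted p = 0.0365) and IREB2 at -0.59 (adjusted p = 0.014). ACO1 was at 91.8, 91.4 and 85.4 CPM in sgControl and 111, 96.7 and 96.4 CPM in sgRFX6, which did not overlap (log2 fold change 0.18, SE 0.15, 95% interval -0.17 to 0.53, adjusted p = 0.666). IREB2 was at 70.8, 40.7 and 57.3 CPM against 39.8, 33.8 and 78.7 CPM, which overlapped (log2 fold change -0.15, SE 0.34, 95% interval -0.92 to 0.62, adjusted p = 0.909).

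**Figure D5:**
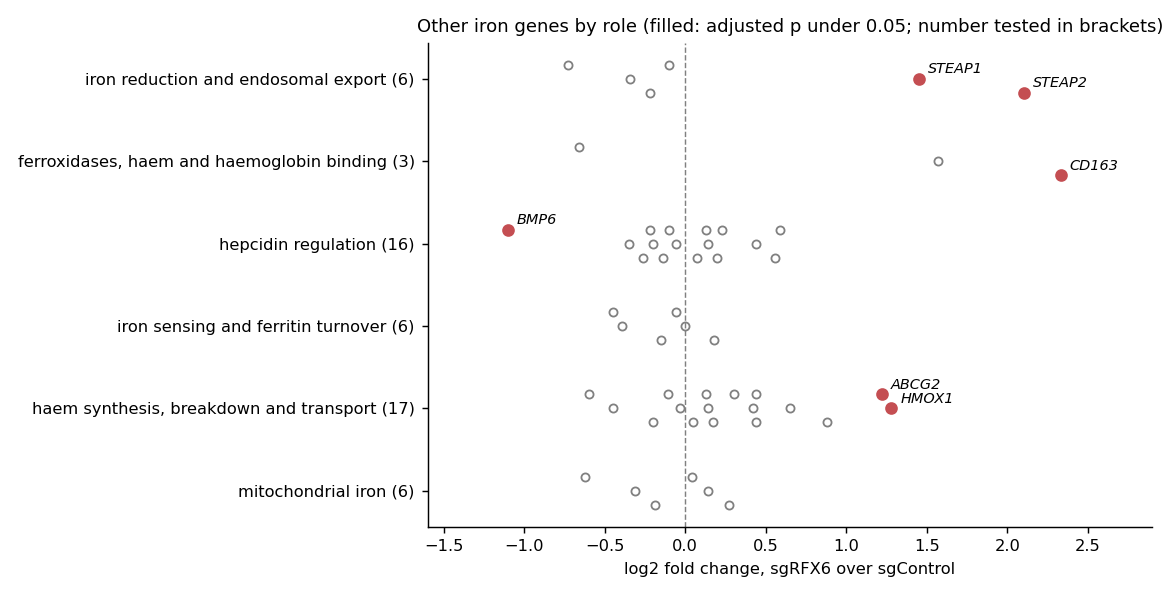
Log2 fold change of sgRFX6 over sgControl for the 54 tested genes of the wider list of iron and haem genes, arranged by role, with the 6 genes called at an adjusted p under 0.05 named. The median of the list is 0.04, and the called genes run from -1.10 (BMP6) to 2.33 (CD163).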

How the data were processed

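Trizol-extracted RNA was sequenced by a company on the Illumina platform. The deposited table holds raw counts per gene in 6 columns, a column per library. Per the labels' processing notes the genome build was GRCh38 (hg38), and the aligner, the counting program, its use of strand and the annotation are not given in the sources used here. Columns were assigned by name and replicate number, and the cas columns were taken as sgControl, the only control group. A blank row name (1 row, up to 9.17e-05% of the counts) was not used.

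Counts were tested with edgeR 4.0.16 in R 4.3.3 (filterByExpr with a minimum count of 10, TMM, quasi-likelihood test over all 6 libraries without covariates, Benjamini-Hochberg adjustment over 12839 genes). Standard errors were derived from the F statistics. Exact permutation tests of CPM used scipy 1.17.1. GENCODE 29 on GRCh38 gave gene coordinates, exon lengths and GC content (15422 row names matched, 254 by another symbol). The GC correction fitted a smooth trend (span 0.3) per library as offsets, and the regional correction removed the median of the nearest 50 tested genes. Alternatives also used DESeq2 1.42.0 and limma 3.58.1. The edgeR test was tested on simulated data. Intervals and floors cover counting error only, since PCR reads are not independent molecules, except for intervals of fold changes, which come from the fit.

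The members and lists were chosen with earlier results of these data known. All 10 members, RFX6, genes that overlap a member, every called gene of the wider list, ACO1 and IREB2 are named, besides SLC39A8 and SLC25A37, which were chosen after their values were seen.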

Additional observations from a re-analysis of the deposited data

How the results depend on the processing

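The number of genes called (480) was 895 with DESeq2, 3998 with limma-voom and sample quality weights, 1458 with GC correction, 751 with the replicate block and GC correction together, and 212 to 718 when each library was left out in turn, at 306, 396 and 212 without sgControl library 1, 2 or 3 and 216, 307 and 718 without sgRFX6 library 1, 2 or 3. Of the 10 iron genes, 0 were called, and 1 with DESeq2 (FTH1), 6 with limma-voom (CP, FTH1, HAMP, SLC11A2, SLC40A1 and TF), 2 with GC correction (FTH1 and SLC40A1) and 0 to 1 with a library left out, the 1 being FTH1 without sgRFX6 library 3 (log2 fold change 0.85, adjusted p = 0.0314). Over the alternatives the adjusted p of TF ran from 0.00637 to 0.478. Of the wider list, 6 genes were called, 26 with limma-voom, 14 with GC correction and 1 to 8 with a library left out, with HMOX1 the 1 gene called without sgControl library 3, and 4 without sgControl library 2 or sgRFX6 library 1. The cause of these differences was not tested.

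The sign turned for TFRC with limma-voom (-0.02), for FTL without sgRFX6 library 2 (-0.01, with -0.01 to 0.41 over the libraries left out), for IREB2 without sgControl library 1 (0.05), sgRFX6 library 1 (0.00) or sgRFX6 library 2 (0.08, with -0.61 to 0.08 over the libraries left out), and for HAMP with limma-voom (2.16), the replicate block (0.26), the replicate block with GC correction (0.21) and without sgControl library 2 (1.74, with -0.95 to 1.74 over the libraries left out). For the 8 tested iron genes, RFX6, the 6 called genes of the wider list, ACO1 and IREB2, 254 alternative values kept their direction and side of the threshold, 12 became called in the same direction, 13 lost a call and 9 turned sign. HAMP with limma-voom, counted among the 9, turned sign and was also called (adjusted p = 0.00594).

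Libraries with the same number deviated with correlations of -0.406, 0.174 and -0.0867, and 0 of 6 correlated best with their own number, so the numbers were not taken to pair them. With the replicate block 648 genes and 0 of the 10 iron genes were called. Adding pseudogene counts to FTL and FTH1 could not give a value, since 0 pseudogenes were rows, and HAMP was removed by the stricter filter on counts. The sign of HAMP, and any level of TFR2 and HPX, cannot be shown at this depth.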
